A study of Mus musculus with 8 samples.

Results

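Collagens are the structural proteins of the extracellular matrix, and the genes considered here are the 44 mouse genes, of 33641 gene symbols with values, whose symbol has the form Col, number, a, number. They were divided by type number into 8 basement membrane genes (types IV, XV and XVIII), 9 fibrillar genes (types I, II, III, V and XI) and 27 other genes, among which types XXIV and XXVII are also known as fibrillar. RNA was sequenced from CD45-CD31+ endothelial cells, which lack the leukocyte antigen CD45 and carry the endothelial antigen CD31, sorted by FACS from lung tumors grown from Lewis lung carcinoma (LLC) cells in the left lung lobe. Tumors were taken at day 21, giving 4 control and 4 endFoxf1+/- samples, each 1 library, with C1 to C4 for the controls and H1 to H4 for endFoxf1+/-. In the endFoxf1+/- mice, a tamoxifen-dependent Cre recombinase driven by Pdgfb regulatory sequence (Pdgfb-iCreER) removes exon 1 of 1 floxed Foxf1 allele (Foxf1 fl/+), so that the other allele stays intact. The controls were littermates with either the floxed allele or the Cre alone. All mice were on a C57Bl/6 background, were 6 to 8 weeks old at the start and received tamoxifen and tumor cells. The sample titles carry a different animal number for each library. Which control genotype a library has, and whether it holds cells of that 1 animal alone, is not stated. The p-values therefore measure only the spread between these libraries. The question the groups address is how loss of 1 endothelial Foxf1 allele changes tumor endothelial cells.

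A collagen molecule is a triple helix of 3 chains, each a long run of triplets that begin with glycine, the only residue small enough for the helix axis. Fibrillar collagens have an unbroken helix and pack into the fibers of connective tissue, made mainly by fibroblasts. Type IV collagen has a helix with many short breaks and forms the sheet-like network beneath endothelium and epithelium, to which endothelial cells themselves contribute, while types XV and XVIII are basement membrane proteoglycans whose C-terminal fragments (restin and endostatin) can restrain vessel growth. The remaining types include the beaded filaments of type VI, collagens that sit on fibrils (IX, XII, XIV, XVI) and membrane-spanning collagens (XIII, XVII, XXIII, XXV).

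The coding sequences show this difference between classes, which was not used to choose any gene. In the longest coding sequence of each gene (GENCODE vM21, GRCm38), the longest run of glycine codons (GGN) spaced 3 codons apart was 337 to 344 triplets in the 9 fibrillar genes, 30 to 66 in the 8 basement membrane genes and 23 to 217 in the 27 other genes, where the longest were those of Col24a1 (216) and Col27a1 (217). The fibrillar helix is also built of exons of repeated length, with 74.6 to 88.5% of coding exons a multiple of 9 bases, against 27.5 to 55.6% in the basement membrane genes. A whole coding exon of Col3a1, 54 bases long (chr1:45325360-45325413, plus strand, GRCm38), and the codons around a break in the helix of Col4a1 (codons 154 to 181, in coding exons 8 and 9, between chr8:11244495-11245066, minus strand) are given below with every triplet-starting glycine codon in capitals.
Col3a1 exon: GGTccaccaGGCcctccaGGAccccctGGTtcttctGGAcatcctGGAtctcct
Col4a1 break: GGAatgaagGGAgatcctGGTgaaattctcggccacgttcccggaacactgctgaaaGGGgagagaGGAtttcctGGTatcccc
In the Col3a1 exon every triplet begins with glycine, whereas in Col4a1 a stretch without the repeat separates the end of its longest run from the next.

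Values are TPM (transcript numbers scaled to a total of 1000000 per library), which are divided by transcript length, so that levels can be compared between genes. The 2 endFoxf1+/- libraries H3 and H4 stood apart before any collagen was considered. The geometric mean of 20 endothelial markers (Pecam1, Cdh5 and others) lay at 84.2 to 106% of its control average in C1 to C4, 104% in H1 and 106% in H2, but at 5.51% in H3 and 55.1% in H4. Each of the 20 endothelial markers was above 0 in every library. The sum of 10 fibroblast markers that are no collagens was 120 to 160 TPM in the controls and 212, 169, 923 and 291 TPM in H1 to H4, and the sum of 11 leukocyte markers, most of it Lyz2, was 1439 to 5087 TPM in the controls and 2522, 1760, 8011 and 4648 TPM. The geometric mean of the leukocyte markers was 47.8 to 137% of the control average in C1 to C4 and 121, 137, 773 and 140% in H1 to H4, and all 10 tested had a positive difference. The sum of 11 pericyte and smooth muscle markers was 69.2 to 102 TPM and 86.4, 69.1, 40.4 and 42.5 TPM, that of 8 epithelial markers 6457 to 30634 TPM and 10248, 2416, 1555 and 23065 TPM, and that of 8 erythroid and platelet markers 975 to 1919 TPM and 644, 661, 416 and 939 TPM. Of the pericyte and smooth muscle list, Cnn1 was at 0 in at least 1 library. Markers whose groups did not overlap, besides those given with the collagens, were Cldn5 and Itga2b (lower in endFoxf1+/-) and Cd3g and Cd68 (higher). Of all genes tested, 2.31% were lower and 2.73% higher without overlap. Foxf1 itself was at 213 to 331 TPM in the controls and 177, 203, 14 and 105 TPM in H1 to H4, below every control. The main collagen results are therefore given with and without H3, and the part that these marker differences have in it was not tested. In bulk RNA, fewer cells of a type and less RNA per cell cannot be told apart.

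In every library but H3, most collagen transcripts were those of basement membrane genes, led by type IV collagen, whereas in H3, with 5.51% of the control endothelial marker level, Col3a1 was the highest collagen. Over the 8 libraries, the highest mean levels were those of Col4a1 (292 TPM) and Col4a2 (227 TPM), followed by Col3a1 (112 TPM). Below these came Col6a1 (20.4 TPM), Col18a1 (20.4 TPM), Col16a1 (19.3 TPM), Col12a1 (19.2 TPM), Col6a2 (16.3 TPM) and Col6a3 (11.5 TPM), which complete the 9 genes with a mean of at least 10 TPM. The next gene, Col15a1, was at 9.05 TPM. The order in the controls alone was another, with Col12a1 (29.4 TPM) above Col3a1 (26.5 TPM), and with Col15a1 (9.96 TPM) above Col6a1 (6.78 TPM), Col6a2 (5.79 TPM), Col16a1 (5.23 TPM) and Col6a3 (3.68 TPM), which reached a mean of 10 TPM only through the endFoxf1+/- libraries. Of the 44 genes, 28 had at least 1 TPM in at least 4 libraries and were tested, 15 of them at 1 TPM or more in all 8 libraries. No gene entered the test through the libraries of 1 group alone.

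The collagens summed to more TPM in endFoxf1+/- than in control libraries, and the 3 classes differed in where this came from. These are totals per library, and H3, with the highest total, held 5.51% of the control endothelial marker level. All 44 genes together gave 744, 627, 565 and 660 TPM in C1 to C4 and 984, 835, 1033 and 1004 TPM in H1 to H4, a mean of 649 ± 74.3 (SD, n = 4) against 964 ± 88.1. Every endFoxf1+/- library lay above every control library, and the log2 ratio of the means was 0.57 with H3 and 0.54 without it. Nor did the groups overlap in any of the scalings tried for this total. As the genes were chosen with results of these data known, sums over them were not tested.

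**Figure D1:**
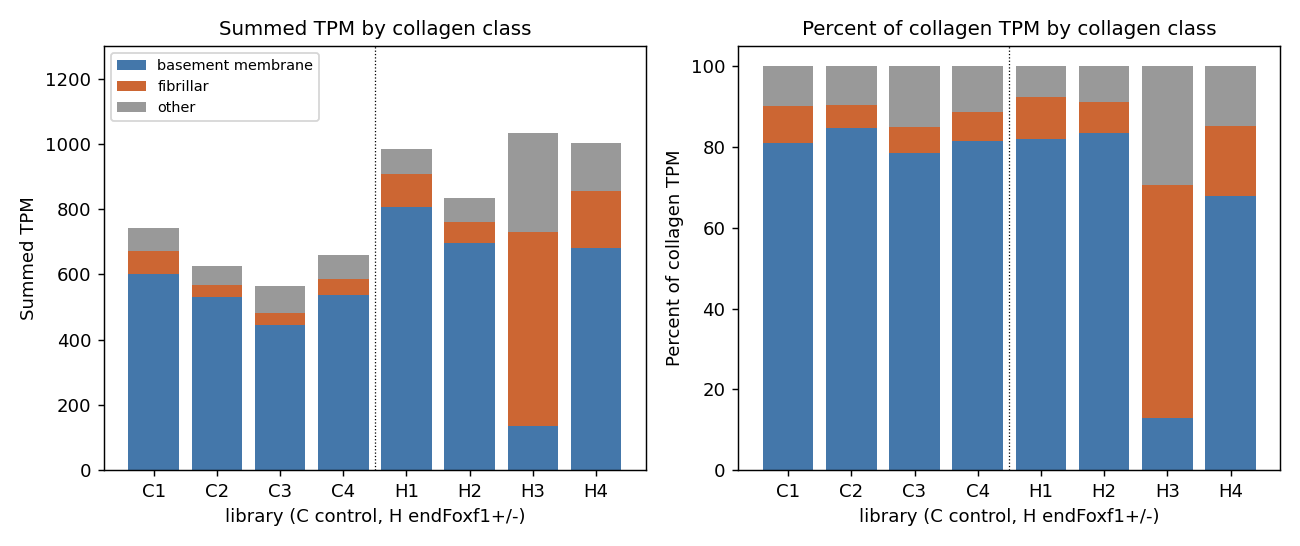
Summed TPM of the basement membrane, fibrillar and other collagen genes (left) and the percent of all collagen TPM in each class (right), as stacked bars for control libraries C1 to C4 and endFoxf1+/- libraries H1 to H4. Basement membrane genes hold 78.6 to 84.7% of the collagen TPM in the controls, 82.0% in H1, 83.5% in H2, 68.0% in H4 and 13% in H3, where fibrillar genes hold 57.6%.

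Basement membrane genes summed to 602, 531, 444 and 538 TPM in C1 to C4 and 807, 697, 135 and 682 TPM in H1 to H4. Thus H1, H2 and H4 were above every control while H3 was below every control. The log2 ratio of means was 0.13 with every library, 0.46 without H3 and -0.068 without H1. Fibrillar genes summed to 69.1, 36.3, 36.1 and 46.6 TPM in the controls and 102, 63.2, 596 and 173 TPM in endFoxf1+/- libraries. Here C1 lay above H2, the other controls lay below every endFoxf1+/- library, and H3 was the highest, with a log2 ratio of 2.31 (1.26 without H3). The other collagens summed to 72.5, 59.7, 84.9 and 75.0 TPM in the controls, 75.6 and 74.9 TPM in H1 and H2, 303 TPM in H3 and 149 TPM in H4. H1 and H2 thus lay within the control range for this class, and the log2 ratio was 1.04 with H3 and 0.45 without it. As the stacked bars of class sums show, fibrillar genes made up 5.79 to 9.30% of collagen TPM in the controls, 10.3% in H1, 7.57% in H2, 57.6% in H3 and 17.2% in H4.

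Gene by gene, no collagen passed the test at an adjusted p of 0.05 (limma on log2(TPM + 1), Benjamini-Hochberg over 14964 genes), as no gene of the whole table did (0.0%), the smallest adjusted p over all genes being 0.305 and that of a collagen 0.790. Without H3, none of the collagens passed either, against 0.00668% of all genes, with a smallest collagen adjusted p of 0.404. At an unadjusted p under 0.05, 7 collagens were higher (25.0% of the 28 tested, against 2.82% of all genes) and 1 was lower (3.57% against 2.77%) in endFoxf1+/-. Without H3, these counts were 6 (21.4% against 4.83%) and 1 (3.57% against 2.35%). In 4 collagens, Col3a1, Col18a1, Col16a1 and Col6a1, every endFoxf1+/- library was above every control (14.3% against 2.73% of all genes), and in 1, Col12a1, every one was below (3.57% against 2.31%). Where groups do not overlap, the exact permutation p given below is at its smallest possible value by construction and adds nothing to that observation. Without H3, Col4a1 joined the first group, giving 5 higher (17.9% against 6.5%) and 1 lower (3.57% against 2.6%). Col3a1, Col18a1 and Col16a1 kept the groups apart under each alternative that can change the order of libraries, namely quantile normalization, median ratio scaling, removal of the most abundant symbol and values relative to endothelial markers. Library C1 decided the count most, since 7 collagens were higher without overlap when it was left out, with Col6a2, Col6a3 and Col7a1 added, while the number over all 14964 genes went from 409 to 663. Leaving out C4 added Col4a6 to the lower side, while that number over all genes went from 345 to 484. Leaving out H2 added Col27a1 to the lower side (862 of all genes) and Col1a1 and Col6a2 to the higher side (666 of all genes). Over the 28 genes 16 differences were positive and 12 negative, with a median log2 difference of 0.07, while 32.0% of all genes tested were positive and their median was -0.17. Without H3, 21 were positive and 7 negative, with a median of 0.29 against 0.01 for all genes.

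**Figure D2:**
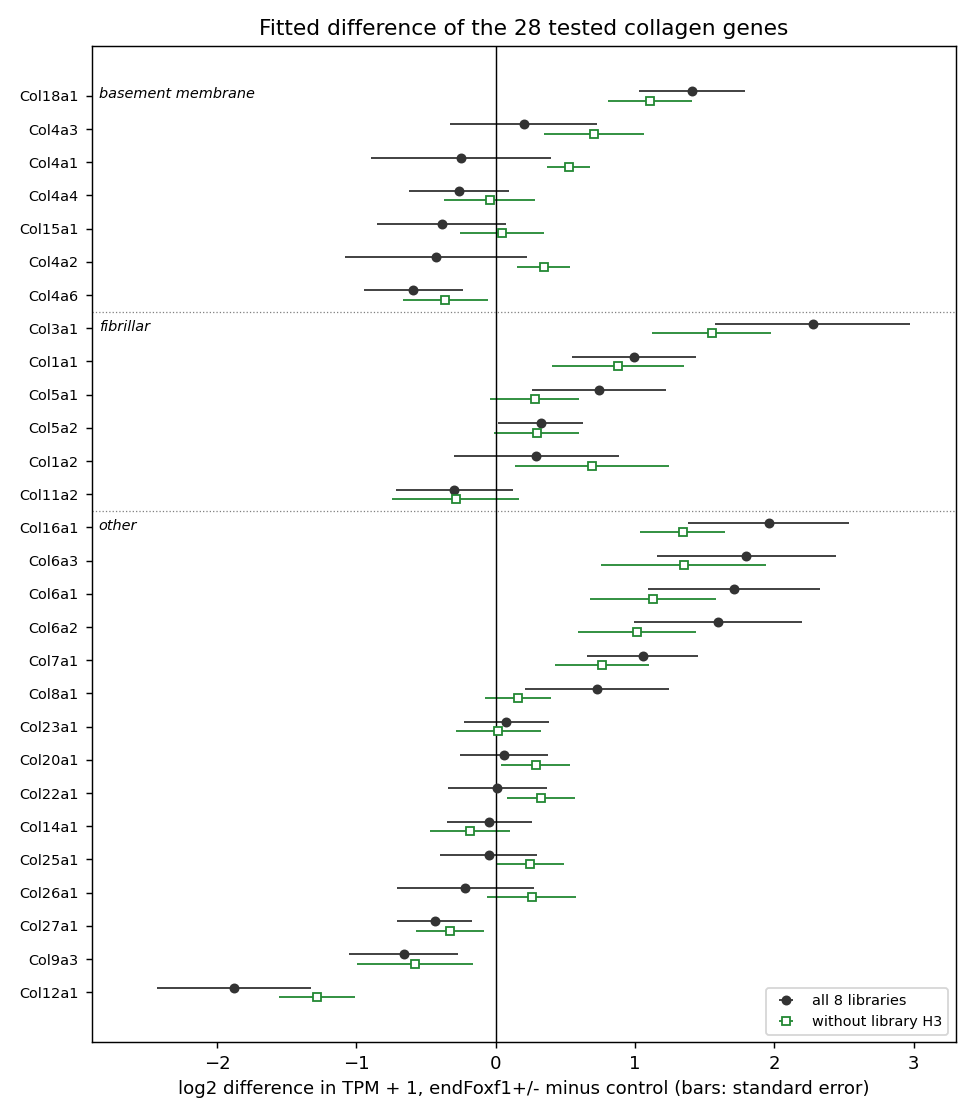
Difference in log2(TPM + 1), endFoxf1+/- minus control, with its standard error, for the 28 tested collagen genes grouped by class and ordered within a class, with all 8 libraries (filled circles) and without library H3 (open squares). The largest positive difference is that of Col3a1 (2.28), the largest negative one that of Col12a1 (-1.88), and the sign for Col4a1 and Col4a2 turns when H3 is left out.

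Col4a1 (chr8:11198423-11312826, minus strand) and Col4a2 (chr8:11312805-11449287, plus strand) encode the 2 chains of the common type IV collagen molecule of vascular basement membranes and lie head to head. Their annotated 5' ends overlap by 22 bases, and a shared promoter region is known to serve both. The RefSeq windows from 250 bases before to 50 bases after each start (GRCm38.p6) have 78 bases in common and are printed here, since both genes are read from them. In these and the windows printed further on, capitals mark the motifs searched on both strands, namely TAAACA (core bound by forkhead factors such as FOXF1), the CCAAT box, the GC box (GGGCGG) and the TATA box (TATAAA). The forkhead core and the TATA box can share letters. Of the 32851 windows of the same length in the table, 13.4% hold the forkhead core, 37.4% a CCAAT box, 35.7% a GC box and 13.6% a TATA box, and of the 38 windows of the 35 collagens listed there, 6, 13, 23 and 5 do.
Col4a1 (chr8:11312777-11313076, minus strand): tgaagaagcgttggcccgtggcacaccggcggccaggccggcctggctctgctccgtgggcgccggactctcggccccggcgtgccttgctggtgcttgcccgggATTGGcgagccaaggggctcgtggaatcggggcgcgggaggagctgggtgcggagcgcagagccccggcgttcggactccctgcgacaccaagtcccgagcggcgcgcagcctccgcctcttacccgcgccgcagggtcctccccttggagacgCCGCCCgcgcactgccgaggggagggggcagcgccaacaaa
Col4a2 (chr8:11312555-11312854, plus strand): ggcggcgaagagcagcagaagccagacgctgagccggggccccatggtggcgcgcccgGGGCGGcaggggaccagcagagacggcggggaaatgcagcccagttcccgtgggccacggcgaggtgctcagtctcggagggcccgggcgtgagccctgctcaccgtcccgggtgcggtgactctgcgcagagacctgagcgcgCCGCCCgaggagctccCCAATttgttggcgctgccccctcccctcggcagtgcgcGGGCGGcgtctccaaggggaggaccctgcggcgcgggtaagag
Both windows hold CCAAT and GC boxes, at a GC content of 74.0 and 73.7% (median of all windows 52.7%), and neither holds the forkhead core or a TATA box.

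Col4a1 was at 306, 285, 228 and 284 TPM in C1 to C4 and at 420, 359, 45.6 and 408 TPM in H1 to H4. H1, H2 and H4 were all above the highest control, and H3 was far below the lowest. With H3 the log2 difference was -0.25 ± 0.65 (SE, n = 4 per group, limma adjusted p = 0.917; exact two-sided permutation p = 1). Without H3 it was 0.52 ± 0.15 (n = 4 and 3, limma adjusted p = 0.560), with an exact permutation p of 0.0571, the smallest that 4 libraries against 3 allow. Col4a2 was at 259, 227, 193 and 228 TPM in the controls and 349, 302, 32.9 and 222 TPM in endFoxf1+/- libraries. H1 and H2 were above every control, H4 was among the controls and H3 was below them. Its log2 difference was -0.43 ± 0.65 (limma adjusted p = 0.859; exact permutation p = 0.914) and 0.34 ± 0.19 without H3 (limma adjusted p = 0.745; exact permutation p = 0.229).

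The ratio of these chains was alike in the controls, H1 and H2 and higher in H3 and H4. Col4a1 over Col4a2 was 1.18 to 1.26 in the controls, 1.20 in H1 and 1.19 in H2, 1.39 in H3 and 1.83 in H4. Over the 8 libraries, Col4a1 spanned a 9.21-fold range and Col4a2 a 10.6-fold range. H4 was the library in which the chains parted most, since its Col4a1 was above and its Col4a2 within the control range.

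Relative to endothelial markers, Col4a1 and Col4a2 were higher in every endFoxf1+/- library than in any control. Col4a1 over Pecam1 was 0.238, 0.238, 0.215 and 0.189 in the controls and 0.308, 0.257, 0.588 and 0.446 in H1 to H4. The groups did not overlap, nor did they for Col4a1 over Cdh5 (0.157 to 0.201 and 0.231 to 0.480). As the mean of the 20 markers was subtracted on the log2 scale, the difference was 0.95 for Col4a1 and 0.78 for Col4a2 (exact two-sided permutation p = 0.0286 for each, the smallest 4 libraries against 4 allow, n = 4). On that scale, however, the median of all genes tested was 1.03 and 1537 of 14964 genes were higher without overlap, so both differences were below that median. Without H3, an alternative added after seeing the data, the differences were 0.75 and 0.58 against a median of 0.24 (exact permutation p = 0.0571 for each).

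The remaining type IV chains were scarce. Col4a3, Col4a4 and Col4a5 form the type IV network of the glomerular and alveolar basement membranes. Col4a3 was at 1.25 to 3.56 TPM in the controls and 4.37, 2.40, 0.309 and 7.18 TPM in H1 to H4, and Col4a4 was at 0.595 to 1.67 and 0.949, 0.432, 0.113 and 2.08 TPM. The ratio of Col4a3 to Col4a4 was 1.73 to 2.29 in the controls and 4.61, 5.55, 2.73 and 3.45 in H1 to H4, above every control. The groups overlapped for either gene alone, and Col4a4, the divisor, was below 1 TPM in H1 to H3. This pair also lies head to head, with 71 bases between the starts. Col4a5 was at 0.402 to 0.886 TPM in the controls, 0.455, 0.214 and 0.221 TPM in H1 to H3, and 5.86 TPM in H4 alone, the highest value of the 16 collagens that were not tested. Its head-to-head partner Col4a6, 1308 bases away, was at 0.942 to 2.42 TPM in the controls and 1.46, 1.60, 0.127 and 0.504 TPM in H1 to H4, so the H4 value of Col4a5 had no counterpart there.

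Col18a1 (chr10:77052178-77166548, minus strand), the source of endostatin, was higher in endFoxf1+/- without overlap, whereas the groups of Col15a1 overlapped. Col18a1 was at 16.2, 7.86, 6.12 and 12.0 TPM in C1 to C4 and 21.8, 22.6, 53.2 and 23.1 TPM in H1 to H4. Every endFoxf1+/- library was above every control, and H1, H2 and H4 lay close together with a mean of 22.5 ± 0.673 TPM (SD, n = 3). The log2 difference was 1.41 ± 0.38 (limma adjusted p = 0.790; exact permutation p = 0.0286, the smallest possible) and 1.11 ± 0.30 without H3 (limma adjusted p = 0.550; exact permutation p = 0.0571, the smallest possible). Of the basement membrane collagens it was the 1 whose groups did not overlap with all 8 libraries. Col15a1, its closest relative, was at 14.8, 6.0, 9.43 and 9.65 TPM in the controls and 8.94, 8.14, 2.24 and 13.2 TPM in endFoxf1+/- libraries, with a log2 difference of -0.39 ± 0.46 (0.05 ± 0.30 without H3). Among the 7 tested basement membrane genes the median log2 difference was -0.26, and 0.34 without H3, with 2 positive and 5 negative differences turning to 5 and 2. Col18a1 has 2 start windows in the RefSeq table, and that of the longer transcript holds GC boxes and CCAAT, whereas the inner one (chr10:77113656-77113955) holds none of the motifs.
Col18a1 (chr10:77166481-77166780, minus strand): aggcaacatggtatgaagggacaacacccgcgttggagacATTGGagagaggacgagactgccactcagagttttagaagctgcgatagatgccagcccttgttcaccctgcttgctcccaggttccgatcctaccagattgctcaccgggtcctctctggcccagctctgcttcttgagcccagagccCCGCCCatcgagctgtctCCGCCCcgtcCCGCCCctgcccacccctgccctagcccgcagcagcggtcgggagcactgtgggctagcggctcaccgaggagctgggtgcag

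**Figure D3:**
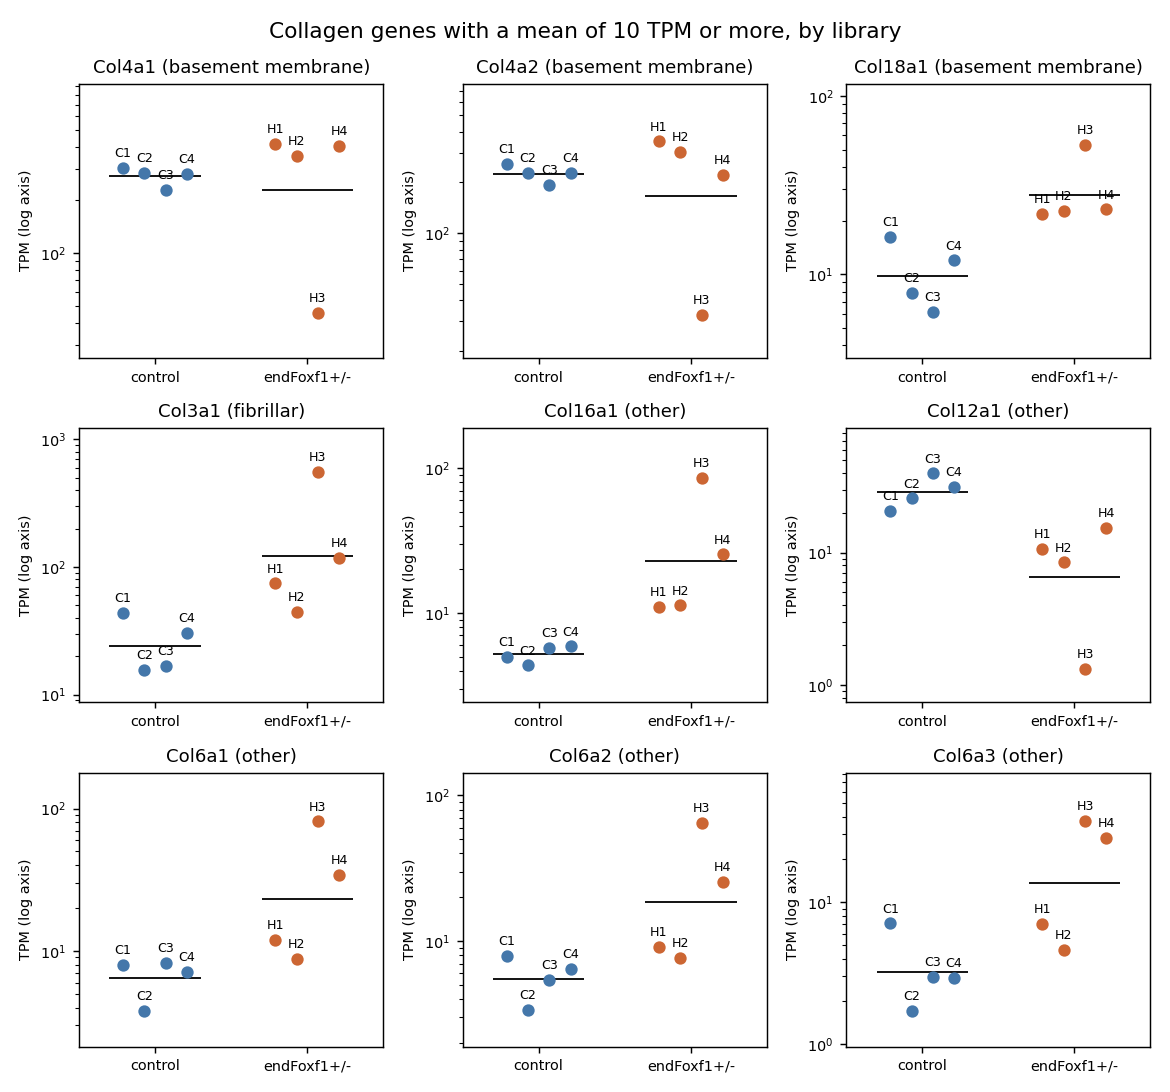
TPM (log axis) of the 9 collagen genes with a mean of at least 10 TPM, each point a library (C control, H endFoxf1+/-) and each line the geometric mean of its group. Groups do not overlap for Col18a1, Col3a1, Col16a1, Col6a1 (higher in endFoxf1+/-) and Col12a1 (lower), and H3 is the lowest library for Col4a1, Col4a2 and Col12a1 and the highest for the other 6 genes.

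Col3a1 (chr1:45311538-45349706, plus strand), the chain of type III collagen in reticular fibers and vessel walls, had the largest difference of any collagen tested. It was at 43.4, 15.6, 16.8 and 30.2 TPM in the controls and 74.4, 44.4, 556 and 118 TPM in H1 to H4. All 4 endFoxf1+/- libraries were above the controls, with H2 only just above C1, and H3 was 21.0-fold above the control mean. The log2 difference was 2.28 ± 0.70 (limma adjusted p = 0.790; exact permutation p = 0.0286, the smallest possible) and 1.55 ± 0.43 without H3 (limma adjusted p = 0.554; exact permutation p = 0.0571, the smallest possible). Its start window is poor in GC (37.7%) and is 1 of the 6 collagen windows with the forkhead core, which there shares letters with a TATA box.
Col3a1 (chr1:45311288-45311587, plus strand): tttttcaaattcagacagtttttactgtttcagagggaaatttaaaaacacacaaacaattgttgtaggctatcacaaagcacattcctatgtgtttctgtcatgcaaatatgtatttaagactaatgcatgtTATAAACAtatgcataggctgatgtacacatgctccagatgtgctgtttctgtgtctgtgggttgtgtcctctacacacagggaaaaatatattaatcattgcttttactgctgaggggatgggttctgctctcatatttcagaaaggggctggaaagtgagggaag

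Col3a1 moved with the fibroblast marker Dcn (decorin, a proteoglycan that binds collagen fibrils). Dcn was at 22.7, 7.64, 11.4 and 20.4 TPM in C1 to C4 and 47.2, 36.6, 533 and 82.6 TPM in H1 to H4, without overlap between the groups. The ratio of Col3a1 to Dcn was 1.04 to 2.05 over all 8 libraries, although Col3a1 spanned a 35.5-fold and Dcn a 69.8-fold range. Over the same libraries the ratio to Dcn varied more for Col16a1 (0.161 to 0.568), Col6a1 (0.152 to 0.724) and Col18a1 (0.0998 to 1.03). Lum (lumican) and Dpt (dermatopontin), 2 further matrix genes of fibroblasts, were like Dcn higher without overlap, as were 2.73% of all genes tested. Lum was at 2.45 to 7.10 and 15.3 to 183 TPM, and Dpt at 1.77 to 6.09 and 9.03 to 114 TPM. Of the whole fibroblast list 9 of 10 genes were tested, 6 had a positive and 3 a negative difference, where 32.0% of all genes tested were positive. Postn was lower without overlap, as were 2.31% of all genes tested. Thy1, the highest of the list after Dcn, was at 56.6 ± 6.60 and 46.8 ± 18.7 TPM (SD, n = 4). None of the list was at 0 in any library. The part of fibroblast RNA in the level of Col3a1 was not tested.

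**Figure D4:**
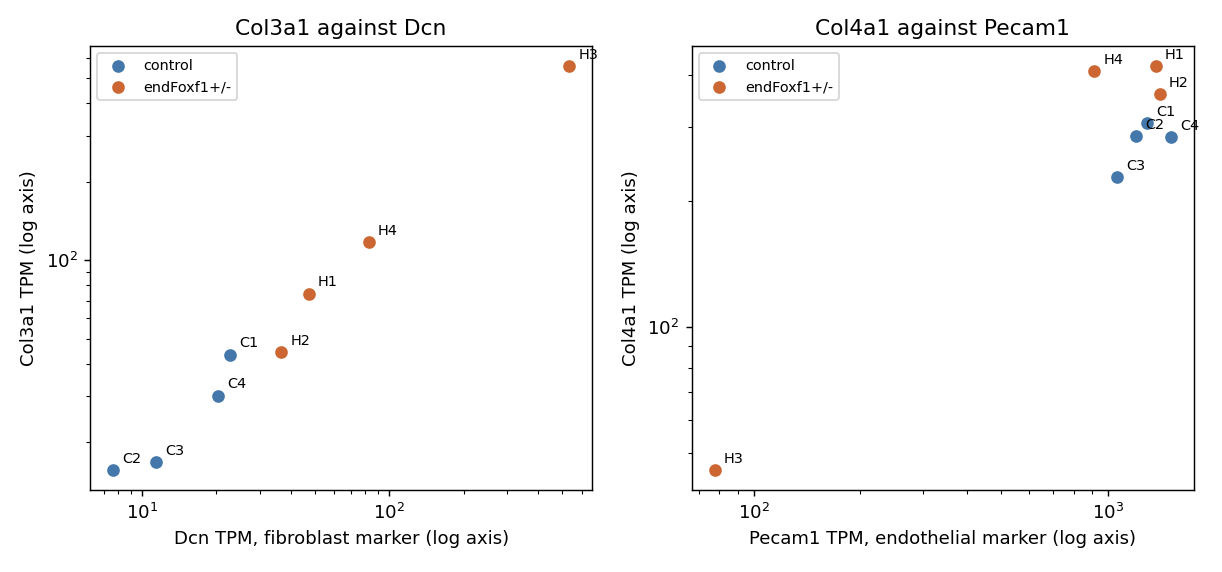
TPM of Col3a1 against the fibroblast marker Dcn (left) and of Col4a1 against the endothelial marker Pecam1 (right), log axes, each point a library (C control, H endFoxf1+/-). Col3a1 and Dcn lie along a line in all 8 libraries with a ratio of 1.04 to 2.05, and H3 has the lowest Col4a1 and Pecam1.

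The other fibrillar collagens differed in how far they shared the high values of Col3a1 in H3 and H4. Col1a1 and Col1a2, the chains of type I collagen, the main fibrous collagen of connective tissue, had mean levels of 7.54 and 7.63 TPM. Col1a1 was at 7.04, 2.84, 5.50 and 2.74 TPM in the controls and 9.85, 3.74, 12.3 and 16.3 TPM in H1 to H4, and Col1a2 was at 8.24, 5.36, 6.34 and 2.80 TPM and 8.46, 3.62, 2.39 and 23.8 TPM. The groups overlapped for both, with log2 differences of 0.99 ± 0.44 and 0.29 ± 0.59 (0.88 ± 0.47 and 0.69 ± 0.55 without H3). Library H3 had the highest Col3a1 of all libraries but the lowest Col1a2, so that Col3a1 over Col1a2 was 233 in H3 against 2.65 to 12.3 in the other libraries. Col1a1 over Col1a2 was 0.531 to 1.16 in the other libraries and 5.16 in H3. H4, in contrast, had the highest levels of both type I chains. Of the type V chains, which start fibrils, Col5a2 was at 2.50 to 6.51 TPM in the controls and 5.06 to 7.56 TPM in endFoxf1+/- libraries although it lies next to Col3a1 (chr1:45374321-45503282), and Col5a1 was at 2.47 to 3.0 TPM in the controls, 2.61 and 2.31 TPM in H1 and H2, 15.2 TPM in H3 and 6.68 TPM in H4. Col11a2, a chain of the cartilage collagen XI, was at 0.782 to 3.87 TPM and 0.395 to 2.56 TPM. Among the 6 tested fibrillar genes 5 differences were positive, with a median of 0.53 and 0.49 without H3. The untested ones were Col2a1 and Col5a3, both at 1.62 TPM or less, and Col11a1. Col11a1 was at 0.543 to 0.661 TPM in the controls and at 0.201, 0.305 and 0.229 TPM in H1 to H3 and 0 in H4, so every endFoxf1+/- library was below every control at a level too low for the test.

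The chains of type VI collagen, which are joined into beaded filaments around cells, were higher together in H3 and H4. Col6a1 (chr10:76708792-76726168, minus strand) was at 7.95, 3.82, 8.23 and 7.12 TPM in C1 to C4 and 11.9, 8.83, 81.2 and 34.3 TPM in H1 to H4, with every endFoxf1+/- library above every control. Its log2 difference was 1.71 ± 0.62 (limma adjusted p = 0.790; exact permutation p = 0.0286, the smallest possible) and 1.13 ± 0.45 without H3 (limma adjusted p = 0.685; exact permutation p = 0.0571, the smallest possible). The groups overlapped under quantile normalization, under median ratio scaling and relative to endothelial markers with or without H3 (exact permutation p = 0.0571 and 0.114). Col6a2 (chr10:76595762-76623630, minus strand), which follows Col6a1 on the chromosome, was at 7.89, 3.38, 5.45 and 6.44 TPM and 9.11, 7.70, 65.2 and 25.6 TPM, with H2 below C1. Col6a3 (chr1:90765923-90843971, minus strand) was at 7.07, 1.72, 2.99 and 2.94 TPM and 7.0, 4.62, 37.2 and 28.5 TPM, with H1 and H2 below C1. The log2 differences were 1.59 ± 0.60 and 1.8 ± 0.64 (limma adjusted p = 0.790 for each; exact permutation p = 0.0571 and 0.0857), and 1.01 ± 0.42 and 1.35 ± 0.59 without H3. Col6a2 and Col6a3 got the exact test only because endFoxf1+/- libraries raised their means to 10 TPM. Its p-values therefore give no support for a difference. Over all 8 libraries Col6a1 over Col6a2 stayed between 1.01 and 1.51, while Col6a1 itself spanned a 21.3-fold range. The alternative chains Col6a4, Col6a5 and Col6a6 were at 0.330 TPM or less in every library. The forkhead core lies in 6 of 38 collagen windows and in 13.4% of all windows. Besides those of Col3a1 and Col6a1 it lies in windows of Col11a2, Col13a1, Col24a1 and Col6a4. Of these only Col11a2 was tested, with a log2 difference of -0.30. The start window of Col6a1 is shown because it is another with this core.
Col6a1 (chr10:76725995-76726294, minus strand): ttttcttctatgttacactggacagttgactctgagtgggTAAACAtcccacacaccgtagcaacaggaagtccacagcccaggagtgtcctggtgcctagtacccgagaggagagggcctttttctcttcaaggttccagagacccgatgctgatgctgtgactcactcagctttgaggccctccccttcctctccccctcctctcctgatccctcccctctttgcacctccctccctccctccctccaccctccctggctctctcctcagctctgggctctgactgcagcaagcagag

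Col16a1 (chr4:130047840-130099283, plus strand) is a collagen that associates with fibrils and with microfibrils, and it was higher in endFoxf1+/- without overlap. It was at 4.97, 4.34, 5.73 and 5.87 TPM in the controls and 11, 11.3, 85.9 and 25.3 TPM in H1 to H4. Every endFoxf1+/- library was above every control, H1 and H2 included. The log2 difference was 1.96 ± 0.58 (limma adjusted p = 0.790; exact permutation p = 0.0286, the smallest possible) and 1.34 ± 0.30 without H3 (limma adjusted p = 0.404; exact permutation p = 0.0571, the smallest possible). With libraries weighted by how well each could be fitted (array weights, 0.0643 for H3 and 0.178 for H4), it was 1.05 at a limma adjusted p of 0.0433, in a fit that called 148 genes. Over all alternatives the adjusted p ran from there to 0.975. The ratio of Col16a1 to Dcn was 0.219 to 0.568 in the controls and 0.161 to 0.308 in endFoxf1+/- libraries. Its start window, with GC boxes and CCAAT and without the forkhead core, is rich in GC (74.3%).
Col16a1 (chr4:130047590-130047889, plus strand): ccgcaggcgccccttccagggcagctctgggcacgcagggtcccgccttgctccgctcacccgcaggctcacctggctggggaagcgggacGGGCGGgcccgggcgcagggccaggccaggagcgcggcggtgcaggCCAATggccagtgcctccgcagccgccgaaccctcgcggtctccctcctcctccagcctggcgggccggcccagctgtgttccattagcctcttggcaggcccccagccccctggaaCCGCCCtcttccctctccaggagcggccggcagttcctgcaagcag

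Col12a1 (chr9:79598991-79718831, minus strand), a collagen that coats type I fibrils in tissue under load, went the other way. It was at 20.7, 25.7, 39.7 and 31.4 TPM in C1 to C4 and 10.7, 8.44, 1.33 and 15.3 TPM in H1 to H4. Every endFoxf1+/- library was below every control, with H4 nearest and H3 farthest. The log2 difference was -1.88 ± 0.55 (limma adjusted p = 0.790; exact permutation p = 0.0286, the smallest possible) and -1.28 ± 0.27 without H3 (limma adjusted p = 0.404; exact permutation p = 0.0571, the smallest possible). With array weights it was -1.45 at a limma adjusted p of 0.0286, and over all alternatives the adjusted p ran from there to 0.975. Relative to the endothelial markers it was -0.68 (exact permutation p = 0.286), and the groups overlapped, on a scale where the median of all genes was 1.03 in place of -0.17. Postn (periostin, a matrix protein of fibroblasts and of vessel wall cells) was also lower without overlap, at 24.7 to 41.7 TPM and 24.3, 15.5, 3.48 and 17.5 TPM. Of the pericyte and smooth muscle list 8 of 11 genes were tested, with 1 positive and 7 negative differences, where 32.0% of all genes tested were positive. Rgs5 (10.7 to 18.9 TPM and 3.71, 3.73, 0.602 and 6.66 TPM) and Myh11 (3.87 to 5.46 TPM and 2.66, 2.66, 0.262 and 1.60 TPM) were lower without overlap, as were 2.31% of all genes, and the groups overlapped in the other 6. The highest of that list, Tagln and Acta2, were at 31.2 ± 3.17 and 23.4 ± 21.6 TPM and at 16.2 ± 7.45 and 17.9 ± 6.92 TPM. The part of these cells in the level of Col12a1 was not tested.

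The other tested genes outside the main classes were at low levels. Col7a1, the anchoring fibril collagen, was at 0.559 to 1.99 TPM in the controls and 1.54 to 6.81 TPM in endFoxf1+/- libraries, with a log2 difference of 1.06 ± 0.40 (limma adjusted p = 0.790), or 0.76 ± 0.34 without H3. Col8a1, a network collagen of vessel walls, was at 2.25 to 3.0 TPM in the controls, 2.99, 2.07 and 3.87 TPM in H1, H2 and H4, and 17.8 TPM in H3. Col26a1 was at 4.30 to 5.41 TPM and 6.28, 10.2, 0.881 and 3.32 TPM. Col9a3, a chain of the fibril-associated type IX collagen, was at 1.51 to 4.04 TPM and 0.217 to 2.33 TPM, with a log2 difference of -0.66 ± 0.39 (-0.58 ± 0.42 without H3). Col14a1, Col20a1, Col22a1, Col23a1, Col25a1 and Col27a1 stayed between 0.213 and 2.93 TPM in every library. For each of these 10 genes the groups overlapped. The median over the 15 tested genes was 0.06 and 0.26 without H3. The 12 untested genes, Col6a4, Col6a5, Col6a6, Col8a2, Col9a1, Col9a2, Col10a1, Col13a1, Col17a1, Col19a1, Col24a1 and Col28a1, did not exceed 2.67 TPM in any library, the highest being Col17a1 in H2. Col9a1 was listed at 0 in 7 libraries and at 0.0142 TPM in H3.

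Genes that modify, export and cut collagen chains, 37 in 3 lists of which 35 were tested, held no gene that passed the test. Of the 18 hydroxylases, glycosyltransferases and chaperones, all tested, 10 differences were positive and 8 negative, none passed the test and in none did the groups keep apart, at a median of 0.09 (0.09 without H3). The highest were Ppib (a prolyl isomerase of the collagen-modifying complex) at 301 ± 38.5 and 346 ± 70.4 TPM (SD, n = 4) and P4hb (the beta subunit of prolyl 4-hydroxylase) at 211 ± 24.2 and 207 ± 14.7 TPM. Of 13 export and cleavage genes 11 were tested, 5 positive and 6 negative, led by Sar1a (139 ± 20.9 and 147 ± 29.3 TPM) and Mia3 (116 ± 21.7 and 106 ± 37.8 TPM), which act in loading procollagen into transport vesicles. The only one without overlap was Pcolce2, an enhancer of procollagen C-proteinase, which was lower, as were 2.31% of all genes tested. Pcolce2 was at 41.8, 25.1, 25.4 and 36.7 TPM in the controls and 22.9, 20.5, 8.16 and 9.80 TPM in H1 to H4 (log2 difference -1.11 ± 0.36, limma adjusted p = 0.790). All 6 cross-linking enzymes were tested, 4 positive and 2 negative, with Pxdn, which cross-links type IV collagen, the highest at 132 ± 10.3 and 123 ± 57.7 TPM and Loxl2 (4.67 ± 0.837 and 7.98 ± 3.87 TPM) next.

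Collagen receptors were also without a call. Of 10 receptors 9 were tested, 5 positive and 4 negative, at a median of 0.21 (0.18 without H3). The highest, Itgb1 (integrin beta 1), was at 304 ± 25.6 and 301 ± 90.5 TPM, and Itga1, which pairs with it, was at 178 ± 30.5 and 123 ± 81.2 TPM. Of 11 further basement membrane genes, all tested, 7 were positive and 4 negative, and Lamb1 and Hspg2 were higher without overlap, as were Col18a1 and 2.73% of all genes. Lamb1 (laminin beta 1) was at 15.8, 7.19, 7.38 and 12.5 TPM in C1 to C4 and 23.7, 24.9, 75.9 and 44.2 TPM in H1 to H4 (log2 difference 1.79 ± 0.41, 1.46 without H3). Hspg2 (perlecan) was at 11.2, 5.63, 5.74 and 10.2 TPM and 21.1, 13.2, 24.7 and 47.9 TPM (1.5 ± 0.40, 1.49 without H3), with a limma adjusted p of 0.790 for both. The highest of this list were Sparc, which binds collagens, at 703 ± 142 and 1040 ± 583 TPM, and Nid1 (nidogen 1, a link between laminin and type IV collagen) at 88.3 ± 10.4 and 106 ± 13.5 TPM. Without H3, Sparc and Nid2 were also higher without overlap, with log2 differences of 0.91 and 1.37, where the share of all genes was 6.5%. Col4a1 over Sparc was 0.342 to 0.424 in the controls and 0.218 to 0.331 in endFoxf1+/- libraries, so every endFoxf1+/- library had less Col4a1 per Sparc than any control.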

How the data were processed

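CD45-CD31+ cells were sorted from LLC lung tumors in 4 control and 4 endFoxf1+/- samples, grouped by the genotype label. Within a group they were numbered in the order listed, and these numbers pair no libraries. The authors deposited TPM per gene symbol for each library, which sum to 1000000, and no column of another sample was present. Per the labels, libraries were made with Nextera XT, which does not mark strand. The submitters' processing notes name TopHat, Cufflinks, Subread and DESeq2 and the builds GRCm38 and mm10, without roles. Which tool made the TPM is not given in the sources used here. TPM keep no read number, so depth is unknown, no counting error was computed, and how well libraries of a group match sets the precision. The authors' DESeq2 step, which needs read counts, was not repeated.

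TPM were used on the log2(TPM + 1) scale, a scale that understates changes of low genes. The 14964 genes with at least 1 TPM in at least 4 of the 8 libraries were fitted in R 4.3.3 with limma 3.58.1 (eBayes with trend), adjusted by Benjamini-Hochberg at a threshold of 0.05. Single genes were also compared by exact two-sided permutation over all 70 assignments (35 without H3), whose smallest p is 0.0286 (0.0571 without H3). The fit was tested on simulated data. Reads of genes that overlap on either strand cannot be told apart, but this concerns 22 exonic bases of Col4a1, 65 of Col4a2, 141 of Col3a1 and none of the other 6 genes described in detail (GENCODE vM21). Promoter windows came from RefSeq, where 35 of the 44 genes matched.

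Genes were named in detail if their mean reached 10 TPM or, if tested, their groups did not overlap or their adjusted p was under 0.05. Of the other lists, genes without overlap or with such a p and the 2 of highest mean TPM were named, and the choice of Col1, Col5, Col7 and Col15 genes, of ratios and of single low genes was made after their values were seen. A single value of 1 marker gene is not reported here. The members and lists were chosen with earlier results of these data known. Alternatives were other pseudocounts, filters and scalings, no trend, array weights, left-out libraries and values relative to endothelial markers.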

Additional observations from a re-analysis of the deposited data

Results flagged for a closer look

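In groups of 4, a library was singled out when its gap to the nearest other library took up more of the group's range than Dixon's 95% limit allows. For normally distributed values chance gives this in about 1 of 20 independent groups. Here the shares were taken on TPM and not on the log2 scale, and all groups come from the same libraries. That rate is therefore only a rough guide. Over the 28 tested collagens and the 3 class sums, 6 of 62 groups had such a library, and 5 of the 6 were the endFoxf1+/- library H3. The share was 0.839 for Col4a1 (H3 at 45.6 TPM, the lowest of its group), 0.857 for Col3a1 (556 TPM, the highest), 0.958 for Col18a1 (53.2 TPM, the highest), 0.886 for Col8a1 (17.8 TPM, the highest) and 0.851 for Col20a1 (0.320 TPM, the lowest). The remaining one was Col11a2, with a share of 0.903, where control library C2 was at 3.87 TPM and the other controls at 0.782 to 1.08 TPM. H3 is also the library with 5.51% of the control level of endothelial markers, and its median correlation with the other libraries was 0.795 against 0.958 to 0.968 for C1 to C4, H1 and H2. H4 was at 0.892, and 21.8% of its TPM belonged to 1 symbol, Gm20594, against 5.11 to 11.3% in the controls. The part of these differences in the collagen values was not tested.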

How the results depend on the processing

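Of the 9 collagens described in detail, Col3a1, Col18a1, Col16a1, Col6a1, Col6a2, Col6a3 and Col12a1 kept the sign of their log2 difference under every alternative run. The median log2 difference of all genes, -0.17, was -0.01 with quantile normalization, -0.02 with median ratio scaling and 0.13 with array weights. With array weights Col12a1 (-1.45) and Col16a1 (1.05) passed the adjusted threshold, giving 2 collagens and 148 genes called. Col4a1 turned positive with quantile normalization (0.0017), array weights (0.51), without H3 and H4 (0.50), relative to endothelial markers (0.95) and relative to them without H3 (0.75, added after seeing the data). Col4a2 did so with array weights (0.52), without H3 and H4 (0.53), and relative to the markers with H3 (0.78) and without it (0.58). Leaving out 1 library at a time moved Col4a1 between -0.53 and 0.52, Col4a2 between -0.78 and 0.34, the genes called between 0 and 1, the collagens without overlap between 4 and 7 (higher; 490 to 973 of all genes) and 1 and 2 (lower; 389 to 862 of all genes), and the log2 ratio of fibrillar sums between 1.26 and 2.62, with the highest type IV and the lowest fibrillar value without H3. Without H3 and H4, 3 genes were called, 9 collagens were higher without overlap (as were 3025 of all 14964 genes, against 409 with all 8 libraries), the fibrillar and other sums had log2 ratios of 0.81 and 0.043, and the median of the other collagens was 0.40. Without the filter 2 collagens were lower without overlap (Col11a1 added), as were 447 of all genes (345 with it), and a minimum of 5 TPM gave the other collagens a median of 1.71. Array weights gave medians of 0.51 (basement membrane) and 0.40 (other). Relative to endothelial markers, 1 gene was called, 6 collagens were higher and 0 lower without overlap (1537 and 7 of all genes), the log2 ratios of sums were 1.24 (basement membrane), 5.86 (fibrillar), 4.26 (other) and 3.05 (all collagens), and the medians were 0.94, 1.73 and 1.26 for the 3 classes, beside 1.03 for all genes. Without H3 on that scale, 1 gene was called, 6 collagens were higher and 0 lower without overlap (1540 and 207 of all genes), the log2 ratios of sums were 0.75 (basement membrane), 1.75 (fibrillar), 0.89 (other) and 0.86 (all collagens), and the medians were 0.58, 0.72 and 0.49 for the 3 classes. The ratio of all collagens, added after seeing the data, was 0.77 with quantile normalization and 0.85 with median ratio scaling. The cause of these changes was not tested.

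With 4 libraries per group the exact test does not go below 0.0286. Depth is unknown, and low TPM cannot be given a counting error. No paired analysis was possible because the labels give the groups no shared replicate numbers.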
